A study of Mus musculus with 12 samples.

Results

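The genes described are 34 listed targets of hypoxia-inducible factor (HIF) and enzymes of glycolysis, measured by RNA sequencing of mouse liver. They were chosen by symbol from the 54838 gene identifiers counted, and 32 of the 34 reached a level of 1 CPM (reads of the gene scaled to a common library total) in at least 3 libraries, as did 12801 identifiers in all. Of these 32 genes, 17 carry glucose into the cell or through glycolysis to lactate, and 15 are other HIF targets. The C57BL/6J mice breathed 7% O2 (hypoxia) or 21% O2 (normoxia) for 24 h, and an intraperitoneal injection of dexamethasone (DEX, a drug that activates the glucocorticoid receptor) at 10 mg/kg or of PBS followed. Livers were taken 2 h after the injection, and the mice of the hypoxia groups spent those 2 h at 7% O2 again. The groups Normoxia_PBS, Normoxia_DEX, Hypoxia_PBS and Hypoxia_DEX each held 3 libraries, which the study calls biological replicates. The labels name no mutant allele, every mouse without DEX received PBS, with sex and age not given in the sources used here. The series title names the glucocorticoid receptor under hypoxia as its subject, so the comparisons asked how oxygen changed these genes, how DEX changed them at each oxygen level, and whether the DEX response differed between oxygen levels.

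HIF is a transcription factor with an alpha subunit that is hydroxylated by oxygen-dependent enzymes and degraded when oxygen is plentiful. When oxygen falls, the alpha subunit persists, pairs with its partner Arnt and binds short DNA elements near genes for glucose uptake, glycolysis, mitochondrial turnover, blood vessel growth and collagen processing. The liver has its own forms of several glycolytic enzymes, and it also makes glucose, a process that glucocorticoids stimulate.

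The DNA around the start sites is shown first because HIF binds a core written ACGTG or GCGTG, searched here on both strands in windows of 250 bases before to 50 bases after each RefSeq start (GRCm38.p6). Both strands of the palindrome CACGTG match, so it counts as 2 matches, and it is also a core of other factors. Windows were found for 29 of the 32 genes, and Ndrg1, Plod2 and Loxl2 had no entry. The core was present in 38 of their 45 windows (84.4%), against 43.8% of all 32851 windows in the table. Median GC content was 64.3% in the windows of the 32 genes and 52.7% in all windows, and the part of base composition in the first difference was not tested. By gene, the core was in at least 1 window of 14 of the 16 genes that rose in hypoxia in PBS mice (87.5%) and of all 13 of the others with an entry (100%). By window the shares were 21 of 24 (87.5%) and 17 of 21 (81.0%), so the order differed between the ways of counting. The windows below belong to the strongest oxygen-responsive genes with many cores (Ankrd37 with 4 matches, Bnip3 with 5), to Pgk1 (2), to Gpi1, which rose with no match in its window, and to Ccng2 (1), the gene with the largest rise with DEX. They are printed 5′ to 3′ on the gene's own strand, with the matches to the core in capitals. Their positions are chr8:45999801-46000100 on the minus strand for Ankrd37, chr7:138909457-138909756 on the minus strand for Bnip3, chrX:106186850-106187149 on the plus strand for Pgk1, chr7:34230287-34230586 on the minus strand for Gpi1 and chr5:93267323-93267622 on the plus strand for Ccng2.
Ankrd37: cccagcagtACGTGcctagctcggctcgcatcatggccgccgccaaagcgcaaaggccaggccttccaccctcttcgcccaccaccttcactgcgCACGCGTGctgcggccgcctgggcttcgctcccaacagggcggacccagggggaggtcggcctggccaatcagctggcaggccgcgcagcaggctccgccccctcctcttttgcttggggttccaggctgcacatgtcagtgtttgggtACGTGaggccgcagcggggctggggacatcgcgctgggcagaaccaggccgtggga
Bnip3: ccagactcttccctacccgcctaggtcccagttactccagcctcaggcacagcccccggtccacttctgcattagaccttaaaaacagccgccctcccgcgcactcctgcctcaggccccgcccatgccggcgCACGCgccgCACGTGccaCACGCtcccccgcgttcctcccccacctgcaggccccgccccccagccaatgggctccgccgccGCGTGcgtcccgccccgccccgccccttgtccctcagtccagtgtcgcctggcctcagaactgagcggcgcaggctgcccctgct
Pgk1: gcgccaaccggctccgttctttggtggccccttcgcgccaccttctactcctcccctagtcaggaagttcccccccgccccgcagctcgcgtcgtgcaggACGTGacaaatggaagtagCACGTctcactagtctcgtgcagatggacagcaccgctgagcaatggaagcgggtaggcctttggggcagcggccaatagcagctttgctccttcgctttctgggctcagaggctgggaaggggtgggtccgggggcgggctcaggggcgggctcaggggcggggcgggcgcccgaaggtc
Gpi1: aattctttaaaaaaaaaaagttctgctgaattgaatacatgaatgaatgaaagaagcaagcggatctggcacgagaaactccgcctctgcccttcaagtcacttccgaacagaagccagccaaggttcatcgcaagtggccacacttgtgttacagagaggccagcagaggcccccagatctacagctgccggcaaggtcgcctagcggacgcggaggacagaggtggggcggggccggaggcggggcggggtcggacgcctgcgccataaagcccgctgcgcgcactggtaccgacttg
Ccng2: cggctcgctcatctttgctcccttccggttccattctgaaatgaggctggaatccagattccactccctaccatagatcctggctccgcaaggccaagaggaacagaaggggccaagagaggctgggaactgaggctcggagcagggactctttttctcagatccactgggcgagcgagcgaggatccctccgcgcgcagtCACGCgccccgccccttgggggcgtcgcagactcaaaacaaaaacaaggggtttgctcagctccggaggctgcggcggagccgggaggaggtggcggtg

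Total counts per library ranged from 12464687 to 24715995. Hepatocyte markers summed to between 114000 and 152700 CPM in every library, and skeletal muscle markers to at most 0.0873 CPM. As a check of the injection, 6 glucocorticoid response genes, which include Fkbp5 and Tsc22d3, were summed. The sums were 282.8 to 387.9 CPM in Normoxia_PBS against 940.5 to 1125 CPM in Normoxia_DEX. They were 357.5 to 523 CPM in Hypoxia_PBS against 818 to 885 CPM in Hypoxia_DEX, where Fkbp5 alone held 506 to 546 CPM. By the test described below, DEX raised 4 of the 6 in normoxia and 3 in hypoxia (66.7% and 50%, against 9.38% and 6.13% of all genes tested). The others did not pass. Hypoxia itself raised 3 of the 6 in PBS mice (50%, against 18.9% of all genes). In DEX mice it raised 1 and lowered 3 (16.7% and 50%, against 20.7% and 22.2%), so these genes moved with oxygen too. On a principal component that separates DEX from PBS, Hypoxia_DEX-2 (9.22) and Hypoxia_PBS-1 (-6.36) stood apart from their groups (21.52 and 21.39; -25.48 and -22.24). Hypoxia_DEX-1 and Hypoxia_DEX-3 differed far less than the other 11 replicate pairs, with a mean chi-square of 1.84 per gene against 11.2 to 40.4, yet above sampling noise, and were kept as separate libraries. Because these are bulk livers, fewer cells of a type and less RNA per cell cannot be told apart for any gene below.

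In PBS mice, 16 of the 32 (50%) rose in hypoxia and 2 (6.25%) fell, against 18.9% and 16.8% of all 13861 genes tested (35.7% in either direction). In DEX mice 14 rose (43.8%) and 5 fell (15.6%), against 20.7% and 22.2% of all genes (42.9% in either direction). A gene is said to rise or fall where its edgeR quasi-likelihood p, adjusted by Benjamini-Hochberg over all 13861 genes, is under 0.05. The median log2 fold change of the 32 genes was 0.47 in PBS mice and 0.32 in DEX mice, against 0.007 and -0.02 for all genes tested. The hypoxia libraries lay wholly above the normoxia libraries for 16 genes and wholly below for 3 in PBS mice (23.5% and 22.2% of all genes), and for 15 and 9 in DEX mice (27.4% and 29.2% of all genes). These 2 comparisons share no library, but they come from 1 fit with a shared spread per gene. All 14 genes that rose in DEX mice were among the 16 that rose in PBS mice (87.5%). The same overlap over all genes tested was not counted, here or for DEX below. Both genes that fell in PBS mice, Ndrg1 and Pfkm, were among the 5 that fell in DEX mice (40%), and no gene passed in opposite directions. The count of falls in PBS mice was small and changed to 5 without Hypoxia_PBS-2 and to 1 without Hypoxia_PBS-3 or without Normoxia_PBS-2. The falls added without Hypoxia_PBS-2 were Slc2a1, Hk2 and Pfkp. Ankrd37 passed the level filter only through hypoxia libraries (3 of Hypoxia_PBS, 1 of Hypoxia_DEX), so the filter itself favoured a rise. Without it the counts were 15 up and 2 down in PBS mice and 13 up and 5 down in DEX mice.

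**Figure D1:**
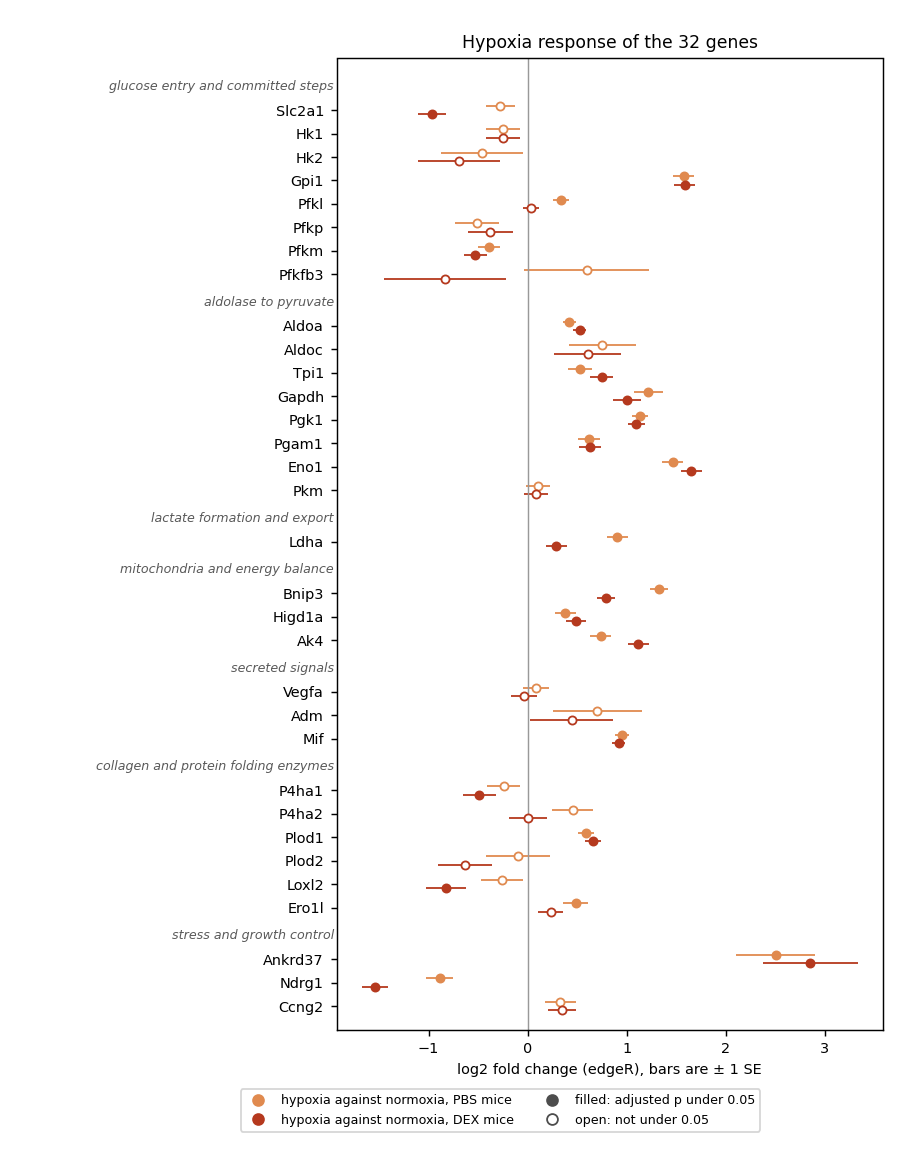
Log2 fold change of hypoxia against normoxia (x axis, edgeR, bars ± 1 SE) for each of the 32 genes (rows, grouped by role), in PBS mice and in DEX mice, 3 libraries per group. The rows from Aldoa to Eno1 lie to the right of 0 in both comparisons, while Ndrg1 lies to the left in both, and Slc2a1 is filled on the left only for DEX mice.

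At the entry to glycolysis the genes did not move together. Of 8 genes for glucose uptake and the first steps, 2 rose and 1 fell in PBS mice, and 1 rose and 2 fell in DEX mice. In PBS mice that was 25% and 12.5%, against 18.9% and 16.8% of all genes tested. In DEX mice it was 12.5% and 25%, against 20.7% and 22.2%. Gpi1 (chr7:34201330-34230336, minus strand, mm10) encodes glucose-6-phosphate isomerase, which turns glucose 6-phosphate into fructose 6-phosphate. Its libraries, in replicate order, measured 106, 105 and 105 CPM in Normoxia_PBS, 324, 307 and 309 CPM in Hypoxia_PBS, 111, 112 and 118 CPM in Normoxia_DEX and 362, 276 and 384 CPM in Hypoxia_DEX. Every hypoxia library was above every normoxia library, and CPM here and below are on TMM-scaled library sizes. The log2 fold change was 1.58 ± 0.10 (SE, n = 3 per group, edgeR adjusted p = 5.91e-07) in PBS mice and 1.59 ± 0.10 (edgeR adjusted p = 2.69e-07) in DEX mice, a 2.98-fold and a 3.00-fold rise. This was the largest log2 fold change among the 17 glycolysis genes in PBS mice, and its difference from the next, Eno1, was not tested.

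Slc2a1 (chr4:119108711-119137983, plus strand), the gene of a widely expressed glucose transporter and a textbook HIF target, did not pass in PBS mice and fell in DEX mice. It measured 7.93, 8.25 and 11.3 CPM in Normoxia_PBS, 6.66, 9.05 and 6.98 CPM in Hypoxia_PBS, 15.8, 15.8 and 16.6 CPM in Normoxia_DEX and 8.04, 8.12 and 8.50 CPM in Hypoxia_DEX. The Normoxia_DEX libraries were the highest, and the other 3 groups overlapped one another. Hypoxia against normoxia gave -0.27 ± 0.15 in log2 units in PBS mice (edgeR adjusted p = 0.162), and in DEX mice Slc2a1 fell by 0.96 ± 0.14 (edgeR adjusted p = 0.000138). Without Hypoxia_PBS-2 it also passed in PBS mice, at -0.43 (edgeR adjusted p = 0.0401).

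The other early genes were low and mixed. Pfkl, the liver form of phosphofructokinase, rose by 0.34 ± 0.08 in PBS mice (edgeR adjusted p = 0.00584) and measured 0.04 ± 0.08 in DEX mice (edgeR adjusted p = 0.751), where the groups overlapped. The difference between those oxygen responses was -0.31 ± 0.12 and did not pass (edgeR adjusted p = 0.274). Pfkm, the muscle form of the same enzyme, ranged from 12.3 to 13.5 CPM in Normoxia_PBS and from 9.53 to 10.2 CPM in Hypoxia_PBS, with no overlap. It fell by 0.39 ± 0.11 in log2 units in PBS mice and by 0.53 ± 0.11 in DEX mice (edgeR adjusted p = 0.0169 and 0.00234). The first of these calls was lost without Hypoxia_PBS-3 or without Normoxia_PBS-2 (edgeR adjusted p = 0.0575 and 0.0614, from 0.00973 to 0.0614 across the alternatives). Hk1 and Hk2, hexokinases that trap glucose inside the cell, passed no test in the main fit and lay between 1.285 and 4.68 CPM in every library. Without Hypoxia_PBS-2, Hk2 fell in hypoxia in PBS mice (edgeR adjusted p = 0.0468). In DEX mice it fell without Hypoxia_DEX-2 and Hypoxia_PBS-1 together (edgeR adjusted p = 0.0384), a choice with limits given below. Pfkp, the platelet form of phosphofructokinase, also passed none in the main fit. It fell in hypoxia in PBS mice without Hypoxia_PBS-2 (edgeR adjusted p = 0.0397). Its counts are uncertain because it overlaps Pitrm1, a gene on the other strand with 8766 counts in all libraries against 865 for Pfkp.

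Pfkfb3, which makes the activator of phosphofructokinase, spread widely within groups. It measured 15.7, 24.9 and 43.5 CPM in Normoxia_PBS, 10.8, 71.4 and 45.1 CPM in Hypoxia_PBS, 82.2, 81.3 and 62.1 CPM in Normoxia_DEX and 34.7, 61.1 and 31.5 CPM in Hypoxia_DEX. The hypoxia and normoxia libraries overlapped in PBS mice, and the log2 fold change of 0.60 ± 0.63 did not pass (edgeR adjusted p = 0.500). In DEX mice the hypoxia libraries lay just below the normoxia libraries. In normoxia the DEX libraries lay above the PBS libraries, with the largest log2 fold change of the 17 glycolysis genes (1.43). The interaction of -1.43 was also their largest in size. Pfkfb3 passed in no comparison, except DEX in normoxia without Hypoxia_DEX-2 and Hypoxia_PBS-1 (edgeR adjusted p = 0.0391). In the Hypoxia_PBS libraries, where Pfkfb3 differed most, 6 neutrophil markers summed to 17.6, 79.2 and 31.8 CPM, in the same order of libraries as Pfkfb3. The same sum was 22.2 to 36.2 CPM in Normoxia_PBS, 5.55 to 11.6 CPM in Normoxia_DEX and 13.5 to 36.6 CPM in Hypoxia_DEX, with Ly6g at 0 in 8 of the 12 libraries, and the part of these cells in the Pfkfb3 values was not tested.

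From aldolase to pyruvate 6 of 8 genes rose in PBS mice, and 6 of 8 in DEX mice (75% each, against 18.9% and 20.7% of all genes tested). These steps split the sugar and then yield ATP and pyruvate. Eno1 (chr4:150236721-150248879, plus strand), the gene of enolase, measured 179, 167 and 185 CPM in Normoxia_PBS, 559, 436 and 470.3 CPM in Hypoxia_PBS, 187, 163 and 194 CPM in Normoxia_DEX and 595, 529 and 588 CPM in Hypoxia_DEX. Every hypoxia library was far above every normoxia library. Its log2 fold change was 1.46 ± 0.10 in PBS mice and 1.66 ± 0.10 in DEX mice (edgeR adjusted p = 9.39e-07 and 2.29e-07).

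Pgk1 (chrX:106187100-106203699, plus strand) encodes phosphoglycerate kinase, which makes the first ATP of the pathway. Libraries measured 106, 111 and 121 CPM in Normoxia_PBS, 242, 261 and 238 CPM in Hypoxia_PBS, 123, 120.0 and 141 CPM in Normoxia_DEX and 279, 263 and 279.6 CPM in Hypoxia_DEX. All hypoxia libraries were above all normoxia libraries, and the rise was 1.13 ± 0.08 in log2 units in PBS mice and 1.10 ± 0.08 in DEX mice (edgeR adjusted p = 1.09e-06 and 7.44e-07). Both matches in its window, printed above, lie before the start.

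Gapdh (chr6:125161715-125166467, minus strand), glyceraldehyde-3-phosphate dehydrogenase, is often used as a reference gene for expression. It measured 9.38, 6.11 and 7.84 CPM in Normoxia_PBS, 17.4, 16.5 and 20.3 CPM in Hypoxia_PBS, 7.99, 10.02 and 10.3 CPM in Normoxia_DEX and 19.3, 19.03 and 18.4 CPM in Hypoxia_DEX. Every hypoxia library was above every normoxia library, while PBS and DEX libraries overlapped at each oxygen level. The rise was 1.22 ± 0.15 in PBS mice and 1.003 ± 0.143 in DEX mice in log2 units (edgeR adjusted p = 4.51e-05 and 0.000115). The level is uncertain, since 82.5% of the 50-base stretches of its transcript occur in other annotated genes, and 57 near copies hold 2444 counts against 2671 for Gapdh. Near copies of Eno1 and Pgk1 hold under 1% of the counts of their gene (0.223% and 0.0800%). Yet 72.2% and 68.0% of their 50-base stretches occur in other annotated genes. For Bnip3 and Mif the shares were 62.4% and 76.4%, so the levels of these genes are uncertain too.

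The remaining genes of this stretch rose less. Tpi1 (triose phosphate isomerase) rose by 0.53 ± 0.12 in PBS mice and 0.75 ± 0.12 in DEX mice, and Pgam1 (phosphoglycerate mutase) by 0.62 ± 0.11 and 0.63 ± 0.11. Aldoa, an aldolase typical of muscle, rose by 0.42 ± 0.07 and 0.53 ± 0.07, with edgeR adjusted p for these 3 genes from 4.25e-05 to 0.00402. Aldoc, the aldolase typical of brain, measured 0.76 ± 0.33 in PBS mice and did not pass (edgeR adjusted p = 0.105). Its 3 Hypoxia_PBS libraries measured 9.17, 26.3 and 11.9 CPM, so replicate 2 carried most of the spread. It passed there with DESeq2 (DESeq2 adjusted p = 0.0413) and without Hypoxia_PBS-1, alone or with Hypoxia_DEX-2 (edgeR adjusted p = 0.0243 and 0.037). In DEX mice Aldoc measured 11.7 to 14.2 CPM in hypoxia and 7.08 to 10.02 CPM in normoxia, and did not pass. It passed with only the compared groups fitted and without Hypoxia_PBS-2 (edgeR adjusted p = 0.00726 and 0.0062). Pkm, the pyruvate kinase of most tissues other than liver, measured 0.11 ± 0.12 in PBS mice and 0.08 ± 0.12 in DEX mice and passed in neither (edgeR adjusted p = 0.510 and 0.610).

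Ldha (chr7:46841475-46855627, plus strand) encodes the lactate dehydrogenase subunit that favours lactate formation, and it had the highest level per length of the 32 genes. Its libraries measured 885, 756 and 913 CPM in Normoxia_PBS, 1511, 1634 and 1637 CPM in Hypoxia_PBS, 896, 1023 and 997 CPM in Normoxia_DEX and 1088, 1375 and 1103 CPM in Hypoxia_DEX. Hypoxia_PBS stood above every other group, and Hypoxia_DEX lay between it and normoxia. The rise in hypoxia was 0.90 ± 0.11 in log2 units in PBS mice (edgeR adjusted p = 3.87e-05) and 0.29 ± 0.11 in DEX mice (edgeR adjusted p = 0.0399). The call in DEX mice was lost without Hypoxia_DEX-2, Hypoxia_PBS-3 or Normoxia_DEX-1, and without Hypoxia_DEX-2 and Hypoxia_PBS-1 together (edgeR adjusted p = 0.117, 0.0511, 0.140 and 0.0969, from 0.00818 to 0.140 across the alternatives). Slc16a3, which encodes a lactate exporter, lay just outside the level filter, with 1 CPM reached in 2 libraries.

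**Figure D2:**
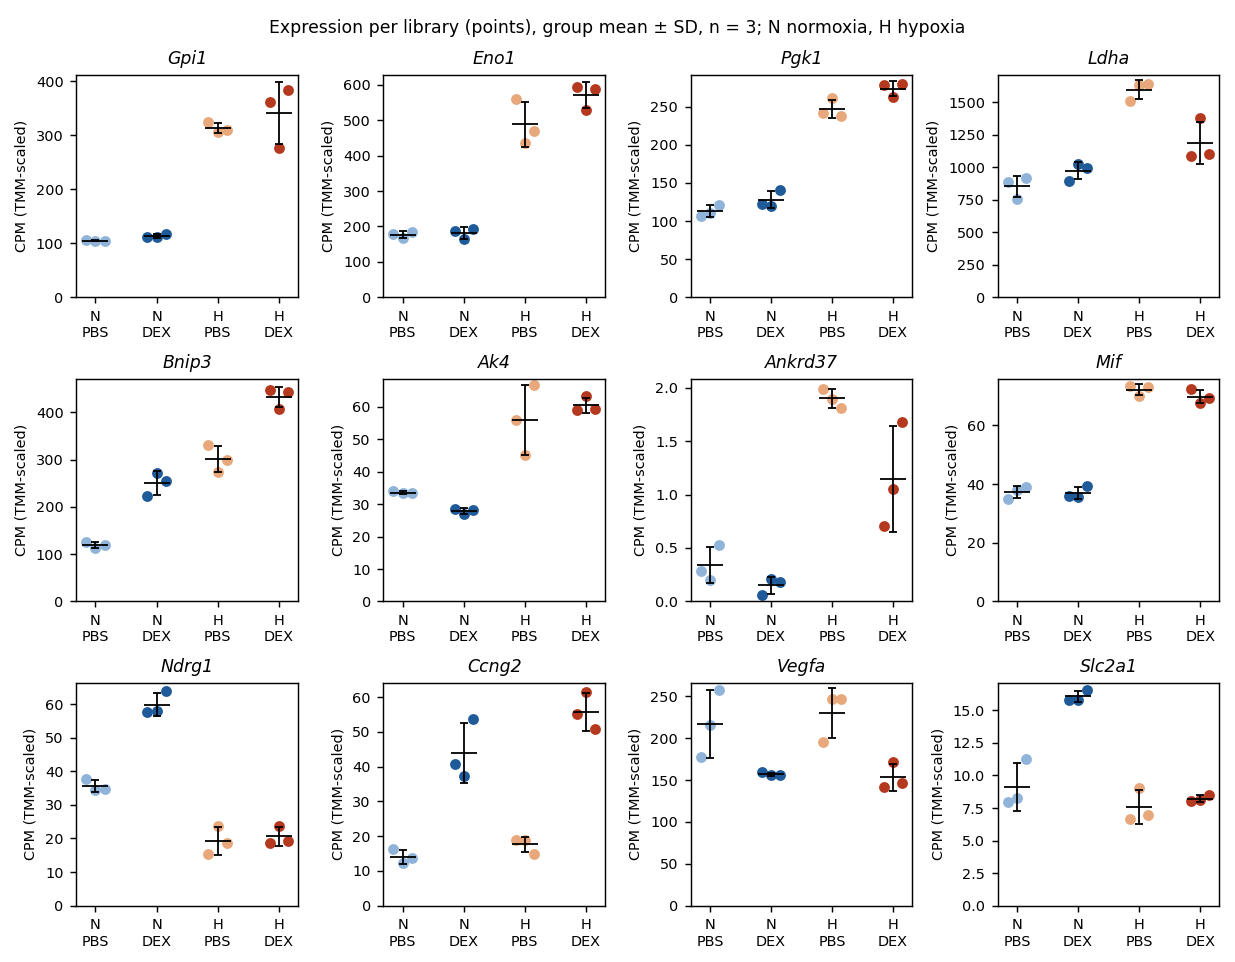
Expression of 12 of the genes in CPM on TMM-scaled library sizes (y axis, from 0) in each library (points), with group means ± SD (n = 3), for normoxia (N) and hypoxia (H) with PBS or DEX. Gpi1, Eno1, Pgk1 and Mif separate by oxygen, Ccng2 and Vegfa by DEX, Bnip3 by both, and the Normoxia_DEX libraries are the highest for Ndrg1 and Slc2a1.

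The 3 genes of mitochondria and energy balance all rose in hypoxia with either injection, against 18.9% of all genes in PBS mice and 20.7% in DEX mice. Bnip3 (chr7:138890836-138909519, minus strand), a receptor that marks mitochondria for removal, measured 126, 114 and 120.1 CPM in Normoxia_PBS, 329.8, 274 and 299 CPM in Hypoxia_PBS, 222, 272 and 256 CPM in Normoxia_DEX and 446, 408 and 443 CPM in Hypoxia_DEX. No groups overlapped, with Normoxia_PBS lowest and Hypoxia_DEX highest, though the highest Normoxia_DEX library and the lowest Hypoxia_PBS library nearly met. Hypoxia raised it by 1.33 ± 0.09 in log2 units in PBS mice and by 0.79 ± 0.09 in DEX mice (edgeR adjusted p = 1.02e-06 and 2.52e-05).

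Ak4 (chr4:101419277-101466995, plus strand) encodes an adenylate kinase of the mitochondrial matrix. It measured 34.04, 33.3 and 33.3 CPM in Normoxia_PBS, 55.8, 45.3 and 66.7 CPM in Hypoxia_PBS, 28.6, 26.8 and 28.2 CPM in Normoxia_DEX and 58.9, 63.2 and 59.3 CPM in Hypoxia_DEX. Hypoxia and normoxia libraries did not overlap, and the rise was 0.74 ± 0.11 in log2 units in PBS mice and 1.12 ± 0.11 in DEX mice (edgeR adjusted p = 0.000193 and 5.58e-06). Higd1a, a protein that associates with respiratory chain complexes, rose by 0.38 ± 0.11 in PBS mice and 0.49 ± 0.10 in DEX mice (edgeR adjusted p = 0.0133 and 0.00215). Its call in PBS mice was lost without Hypoxia_PBS-1, without Normoxia_PBS-2, with only the compared groups fitted and without Hypoxia_DEX-2 and Hypoxia_PBS-1 together (edgeR adjusted p = 0.0776, 0.0541, 0.0510 and 0.0765, from 0.00674 to 0.0776 across the alternatives).

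Among secreted factors, Mif rose in hypoxia and Vegfa did not pass. Mif (chr10:75859353-75860240, minus strand), a cytokine gene, measured 35.0, 37.8 and 38.9 CPM in Normoxia_PBS, 73.3, 70.04 and 73.0 CPM in Hypoxia_PBS, 35.9, 35.7 and 39.3 CPM in Normoxia_DEX and 72.2, 67.7 and 69.4 CPM in Hypoxia_DEX. Hypoxia libraries were well above normoxia libraries, by 0.95 ± 0.07 in log2 units in PBS mice and 0.92 ± 0.07 in DEX mice (edgeR adjusted p = 9.39e-07 and 6.19e-07). Vegfa (chr17:46016993-46032369, minus strand), the main growth factor for blood vessels and a textbook HIF target, measured 177, 215 and 258 CPM in Normoxia_PBS, 196, 247 and 247 CPM in Hypoxia_PBS, 159, 156 and 157 CPM in Normoxia_DEX and 142, 172 and 146 CPM in Hypoxia_DEX. Oxygen groups overlapped, with log2 fold changes of 0.08 ± 0.13 in PBS mice and -0.04 ± 0.13 in DEX mice (edgeR adjusted p = 0.641 and 0.836). Adm, a vasodilator peptide, ranged from 1.51 to 10.2 CPM over all libraries and measured 0.71 ± 0.45 in PBS mice without passing (edgeR adjusted p = 0.253). Stc2, a secreted glycoprotein gene, reached 1 CPM in 0 libraries and was not tested.

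Of the 6 genes for collagen processing and protein folding, 2 rose in PBS mice, and 1 rose and 2 fell in DEX mice. The rises in PBS mice were 33.3%, against 18.9% of all genes tested, of which 16.8% fell. In DEX mice 16.7% rose and 33.3% fell, against 20.7% and 22.2% of all genes. Plod1, a lysyl hydroxylase of collagen, rose by 0.59 ± 0.08 in PBS mice and 0.66 ± 0.08 in DEX mice (edgeR adjusted p = 0.000133 and 3.53e-05). Ero1l, which encodes the oxidase that drives disulfide bond formation in the endoplasmic reticulum, rose by 0.48 ± 0.12 in PBS mice (edgeR adjusted p = 0.00834) and measured 0.23 ± 0.12 in DEX mice (edgeR adjusted p = 0.150), and the difference of -0.25 ± 0.18 did not pass (edgeR adjusted p = 0.615). Loxl2, a lysyl oxidase that cross-links collagen, measured 3.40, 4.72 and 3.54 CPM in Normoxia_DEX and 2.54, 2.01 and 2.05 CPM in Hypoxia_DEX, with no overlap. It fell by 0.83 ± 0.20 in log2 units in DEX mice (edgeR adjusted p = 0.00479), and 3 genes that share sequence with it hold 14.1% as many counts. P4ha1, a catalytic subunit of collagen prolyl hydroxylase, fell by 0.49 ± 0.17 in DEX mice (edgeR adjusted p = 0.0326). That call was lost without any one of Hypoxia_DEX-1, Hypoxia_DEX-2, Hypoxia_DEX-3, Normoxia_DEX-1 or Normoxia_DEX-2, and with Hypoxia_DEX-1 and Hypoxia_DEX-3 summed (edgeR adjusted p = 0.0659, 0.0525, 0.142, 0.0545, 0.169 and 0.0832, from 0.0170 to 0.169 across the alternatives). Markers of collagen-making stellate cells fell beside these genes, 5 of 8 in PBS mice and 6 of 8 in DEX mice, with sums of 246 to 307 CPM in the hypoxia libraries and 283 to 395 CPM in the normoxia libraries. Col1a1, at 4.43 to 6.34 CPM in normoxia and 0.472 to 1.90 CPM in hypoxia, was among those with the largest falls. Dcn, the most abundant of the 8, passed in neither comparison and measured 138 to 196 CPM in normoxia and 172 to 216 CPM in hypoxia. The part of these markers in the values of the collagen genes was not tested.

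Ankrd37 (chr8:45996902-46005707, minus strand), which encodes an ankyrin repeat protein, had the largest fold change at the lowest level. It measured 0.290, 0.204 and 0.527 CPM in Normoxia_PBS, 1.99, 1.90 and 1.81 CPM in Hypoxia_PBS, 0.0566, 0.207 and 0.186 CPM in Normoxia_DEX and 0.710, 1.05 and 1.68 CPM in Hypoxia_DEX. No normoxia library reached the lowest hypoxia library, and the log2 fold change was 2.50 ± 0.40 in PBS mice and 2.85 ± 0.48 in DEX mice (edgeR adjusted p = 0.00041 and 0.0004). It had 169 counts over all 12 libraries. Plod2, with 1 CPM reached in 9 libraries, was the other gene just inside the level filter.

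Ndrg1 (chr15:66929318-66969640, minus strand), a gene named for its link to cell differentiation and often used as a marker of hypoxia in tumours, went the other way. Libraries measured 37.6, 34.3 and 34.8 CPM in Normoxia_PBS, 15.3, 23.7 and 18.8 CPM in Hypoxia_PBS, 57.7, 58.1 and 63.9 CPM in Normoxia_DEX and 18.6, 23.8 and 19.4 CPM in Hypoxia_DEX. Hypoxia libraries were below all normoxia libraries with either injection. Ndrg1 fell by 0.89 ± 0.13 in log2 units in PBS mice (edgeR adjusted p = 0.00028) and by 1.54 ± 0.13 in DEX mice (edgeR adjusted p = 2.85e-06).

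With DEX in normoxia, 6 of the 32 (18.8%) rose and 1 (3.12%) fell, against 9.38% and 7.4% of all genes tested (16.8% in either direction), with a median log2 fold change of 0.14 against 0.002 for all genes. In hypoxia 2 rose and 2 fell (6.25% each), against 6.13% and 7.05% of all genes (13.2% in either direction), so the shares in hypoxia were near those of all genes. The DEX libraries lay wholly above the PBS libraries for 13 genes and wholly below for 3 in normoxia (18.4% and 17.5% of all genes), and for 4 and 4 in hypoxia (15.3% and 14.6%). Both genes that rose in hypoxia, Bnip3 and Ccng2, were among the 6 that rose in normoxia (33.3%), and Vegfa fell at both oxygen levels. Among the 17 glycolysis genes, Slc2a1 was the one that passed in normoxia and Ldha the one that passed in hypoxia. The small counts moved with single libraries: in hypoxia 4 genes rose without Hypoxia_DEX-2, 6 without Hypoxia_PBS-1 and 7 without both, and the falls were 0 without Hypoxia_DEX-1 and 1 without Hypoxia_DEX-3 or without Hypoxia_PBS-3. Without both libraries the added rises were Gpi1, Pgam1, Eno1, Higd1a and Plod1, with edgeR adjusted p from 0.0029 to 0.012, and the added fall was Ero1l (edgeR adjusted p = 0.0415), which made 3 falls. Hypoxia_DEX-2 and Hypoxia_PBS-1 are the libraries that stood apart from their groups, each towards the other injection. Leaving out both therefore widens the DEX contrast. The Hypoxia_DEX libraries then left are the close pair (mean chi-square 1.84), which makes the spread small. The adjusted p of that fit are for these reasons no support for the added genes. In normoxia the falls by edgeR were 0 without Normoxia_PBS-3, Normoxia_PBS-2, Normoxia_DEX-3 or Normoxia_DEX-1, and 2 without Hypoxia_PBS-2 or Hypoxia_PBS-3. Normoxia_PBS serves as the control both here and in the oxygen comparison of PBS mice, so values of these comparisons are not independent.

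**Figure D3:**
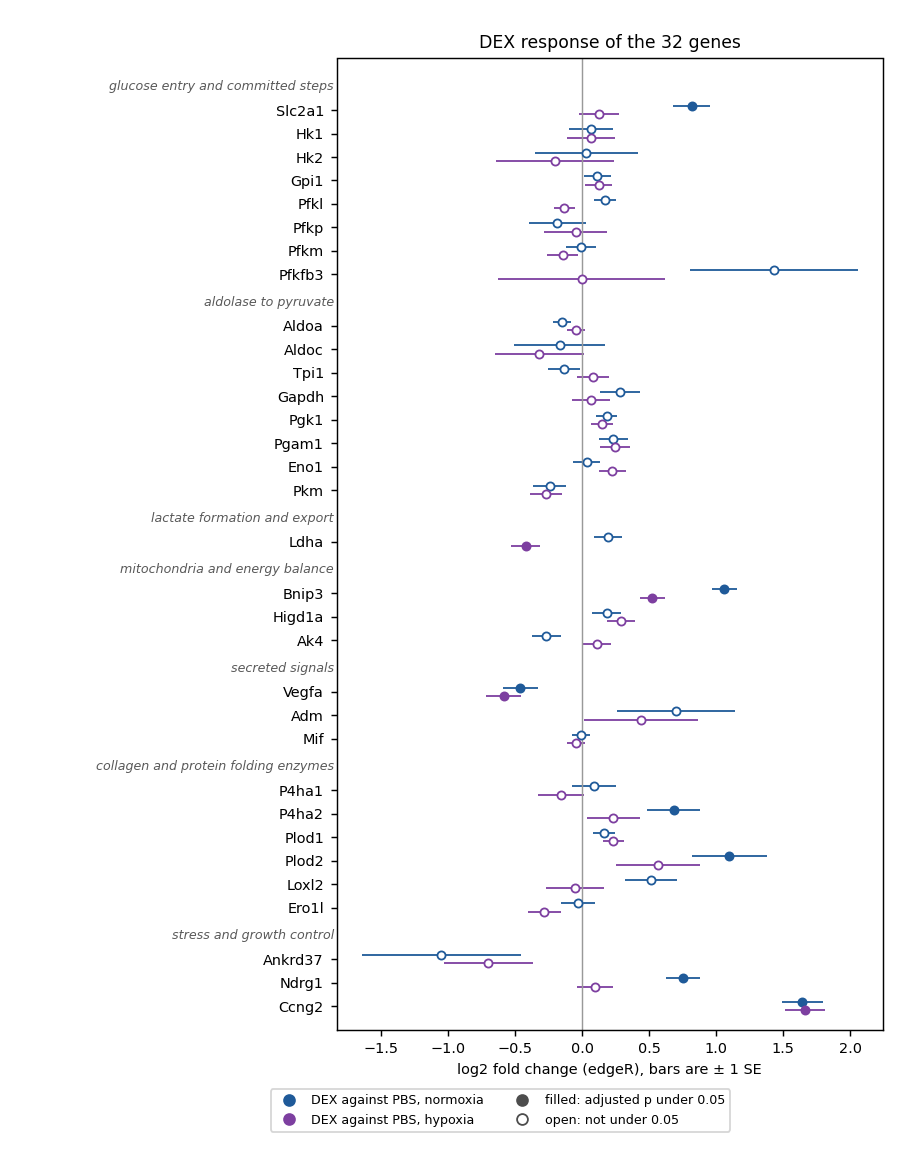
Log2 fold change of DEX against PBS (x axis, edgeR, bars ± 1 SE) for each of the 32 genes (rows, grouped by role), in normoxia and in hypoxia, 3 libraries per group. Ccng2 lies farthest to the right at both oxygen levels, Bnip3 is filled at both, Vegfa is filled on the left at both, and the rows from Aldoa to Pkm are all open.

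Ccng2 (chr5:93267257-93276231, plus strand) encodes cyclin G2, an unusual cyclin that holds back the cell cycle, and it rose most with DEX. It measured 16.2, 12.2 and 13.8 CPM in Normoxia_PBS, 40.9, 37.2 and 53.8 CPM in Normoxia_DEX, 18.9, 19.0 and 15.02 CPM in Hypoxia_PBS and 55.3, 61.6 and 50.7 CPM in Hypoxia_DEX. Every DEX library was far above every PBS library, while the oxygen groups overlapped with either injection. The rise was 1.64 ± 0.15 in log2 units in normoxia and 1.66 ± 0.15 in hypoxia (edgeR adjusted p = 1.03e-05 and 2.48e-05). Oxygen itself gave 0.33 ± 0.16 in PBS mice and 0.35 ± 0.14 in DEX mice, and neither passed (edgeR adjusted p = 0.120 and 0.0673).

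Bnip3, with the library values given above, rose with DEX by 1.06 ± 0.09 in normoxia and by 0.52 ± 0.09 in hypoxia (edgeR adjusted p = 4.22e-06 and 0.00219). The DEX libraries were above the PBS libraries at each oxygen level. Vegfa fell by 0.46 ± 0.13 in normoxia and by 0.59 ± 0.13 in hypoxia (edgeR adjusted p = 0.0247 and 0.00946). The normoxia call did not hold without Normoxia_PBS-3 (edgeR adjusted p = 0.107), without Normoxia_PBS-2 (0.0663) or without Normoxia_DEX-1, -2 or -3 in turn (0.0652, 0.0655 and 0.0619, from 0.00546 to 0.107 across the alternatives). The hypoxia call was lost without Hypoxia_DEX-1 (edgeR adjusted p = 0.0525, from 0.00114 to 0.0525). Normoxia_PBS was the widest group for Vegfa, and its lowest library, at 177 CPM, was still above the highest Normoxia_DEX library, at 159 CPM.

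Slc2a1 and Ndrg1 rose with DEX in normoxia, and the hypoxia comparison did not pass for either. Slc2a1 rose by 0.82 ± 0.14 in normoxia (edgeR adjusted p = 0.000968) and measured 0.13 ± 0.15 in hypoxia (edgeR adjusted p = 0.637). Ndrg1 rose by 0.75 ± 0.13 in normoxia (edgeR adjusted p = 0.00109) and measured 0.10 ± 0.14 in hypoxia (edgeR adjusted p = 0.709). The difference between the DEX responses is given below and did not pass for either gene. In both genes the Normoxia_DEX libraries stood alone above the other 9.

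A pair of collagen enzymes also rose with DEX in normoxia from low levels. Plod2 (chr9:92542223-92608428, plus strand), another lysyl hydroxylase, measured 0.811, 0.968 and 1.32 CPM in Normoxia_PBS, 1.87, 2.78 and 1.86 CPM in Normoxia_DEX, 1.23, 0.730 and 0.872 CPM in Hypoxia_PBS and 1.77, 1.40 and 1.10 CPM in Hypoxia_DEX. Its rise was 1.10 ± 0.28 in log2 units (edgeR adjusted p = 0.0152) and was lost without Normoxia_DEX-2, Normoxia_PBS-1 or Normoxia_PBS-2 (edgeR adjusted p = 0.0933, 0.0657 and 0.0630, from 0.0102 to 0.0933). In hypoxia Plod2 measured 0.57 ± 0.31 (edgeR adjusted p = 0.270), and the difference of -0.53 ± 0.42 did not pass (edgeR adjusted p = 0.676). P4ha2 (chr11:54100095-54131665, plus strand), the second catalytic subunit of collagen prolyl hydroxylase, measured 2.95, 2.70 and 2.44 CPM in Normoxia_PBS, 4.70, 3.73 and 4.66 CPM in Normoxia_DEX, 4.15, 2.48 and 4.43 CPM in Hypoxia_PBS and 4.26, 4.45 and 4.35 CPM in Hypoxia_DEX. Normoxia_PBS was low and tight, and the Hypoxia_PBS libraries spread over both levels. The rise was 0.68 ± 0.20 in log2 units (edgeR adjusted p = 0.0304) and was lost without Normoxia_DEX-1, Normoxia_DEX-3, Normoxia_PBS-2 or Normoxia_PBS-3 (edgeR adjusted p = 0.0965, 0.101, 0.0890 and 0.0938, from 0.00855 to 0.101). In hypoxia P4ha2 measured 0.23 ± 0.20 (edgeR adjusted p = 0.502), and the difference of -0.45 ± 0.28 did not pass (edgeR adjusted p = 0.565).

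Ldha fell with DEX in hypoxia by 0.42 ± 0.11 in log2 units (edgeR adjusted p = 0.0177), while in normoxia it measured 0.19 ± 0.11 without passing (edgeR adjusted p = 0.257). All 3 Hypoxia_DEX libraries were below all Hypoxia_PBS libraries. It did not hold without Hypoxia_PBS-3, Hypoxia_DEX-1 or Hypoxia_DEX-3, with the last 2 summed or with only the compared groups fitted (edgeR adjusted p = 0.0654, 0.0906, 0.0885, 0.0881 and 0.0531, from 0.000894 to 0.0906 across the alternatives).

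The interaction asks directly whether the DEX response in hypoxia differed from that in normoxia. By edgeR 0 of the 32 genes passed, against 1.32% of all genes tested (0.325% higher and 0.996% lower). At an unadjusted p under 0.05 there were 6 (Slc2a1, Pfkl, Ldha, Bnip3, Ak4 and Ndrg1), of which Ak4 was higher and 5 were lower, and 12.2% of all genes reached that level. The closest were Ldha, with a log2 difference of -0.61 ± 0.15, and Bnip3, with -0.54 ± 0.13 (both edgeR adjusted p = 0.0667). With DESeq2 these 2 genes passed and no others, at -0.60 and -0.52 (DESeq2 adjusted p = 0.00915 and 0.0128), and across the alternatives the adjusted p ran from 0.0041 to 0.199 for Ldha and from 0.0128 to 0.187 for Bnip3. Slc2a1 gave -0.69 ± 0.20 and Ndrg1 -0.66 ± 0.19 (edgeR adjusted p = 0.135 and 0.125, from 0.0406 to 0.325 and from 0.00471 to 0.325 across the alternatives). With single libraries left out, 1 gene was lower without Hypoxia_DEX-2, without Normoxia_DEX-1 or without Normoxia_PBS-3, and 2 were lower without Hypoxia_PBS-1. The median log2 difference of the 32 genes was -0.13, against -0.02 for all genes.

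Levels per kilobase of exon allow genes of 1 family to be set side by side. The length used joins all annotated exons of a gene, including those of transcripts that may not be made in liver. In Normoxia_PBS, Aldoa measured 21.9 ± 0.652 CPM per kilobase (SD, n = 3) and Aldoc 2.85 ± 0.365. Pkm measured 3.02 ± 0.186 CPM per kilobase, far below Pklr, the pyruvate kinase gene typical of liver, at 58.6 ± 6.70. Hk1 measured 0.488 ± 0.0612 CPM per kilobase and Hk2 0.613 ± 0.147, which did not differ beyond their spread. Of the 32 genes Ldha was the highest (257 ± 25.4 CPM per kilobase), followed by Tpi1 (73.0 ± 9.46). Bnip3 (53.0 ± 2.70), Vegfa (50.6 ± 9.47), Pgk1 (50.2 ± 3.46) and Mif (49.99 ± 2.74) came next, within the spread of their libraries. That spread covers neither the length used nor shared sequence, so their order is uncertain. The shared stretches were 62.4% in Bnip3, 68.0% in Pgk1 and 76.4% in Mif, against 0.2% in Vegfa. Plod2 was the lowest, at 0.191 ± 0.0481 CPM per kilobase. Gapdh, at 1.88 ± 0.396, was low beside its neighbours in the pathway, with the uncertainty from its copies given above.

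Of 20 further glycolysis and glucose genes measured in these livers, 17 were tested. In hypoxia 8 rose and 3 fell in PBS mice (47.1% and 17.6%, against 18.9% and 16.8% of all genes tested). In DEX mice 9 rose and 3 fell (52.9% and 17.6%, against 20.7% and 22.2%). With DEX 17.6% rose in normoxia and 5.88% fell in hypoxia, against 9.38% and 7.05% of all genes. Among those that changed in PBS mice were Pklr (1.51 ± 0.13 on the log2 scale), Slc2a2 (1.35 ± 0.10), the glucose transporter of hepatocytes, and the hexokinase Hk3 (-1.14 ± 0.22), with edgeR adjusted p from 1.07e-06 to 0.00147. In DEX mice Pklr rose by 1.55 ± 0.13, Hk3 fell by 1.32 ± 0.22 and Pfkfb1, a liver enzyme that sets phosphofructokinase activity, rose by 1.27 ± 0.17 (edgeR adjusted p from 1.46e-06 to 0.000381). At the pyruvate kinase step Pklr thus rose and Pkm did not pass. With DEX in normoxia 3 of the 17 rose, among them Adpgk, a sugar kinase that uses ADP, by 0.59 ± 0.09 (edgeR adjusted p = 0.000581). With DEX in hypoxia 1 of the 17 passed, Galm, a mutarotase of sugars, which fell by 0.31 ± 0.07 (edgeR adjusted p = 0.0127). It did not hold without Hypoxia_PBS-2, Hypoxia_DEX-1 or Hypoxia_DEX-3, and with Hypoxia_DEX-1 and Hypoxia_DEX-3 summed (highest edgeR adjusted p 0.0656, from 0.00448).

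**Figure D4:**
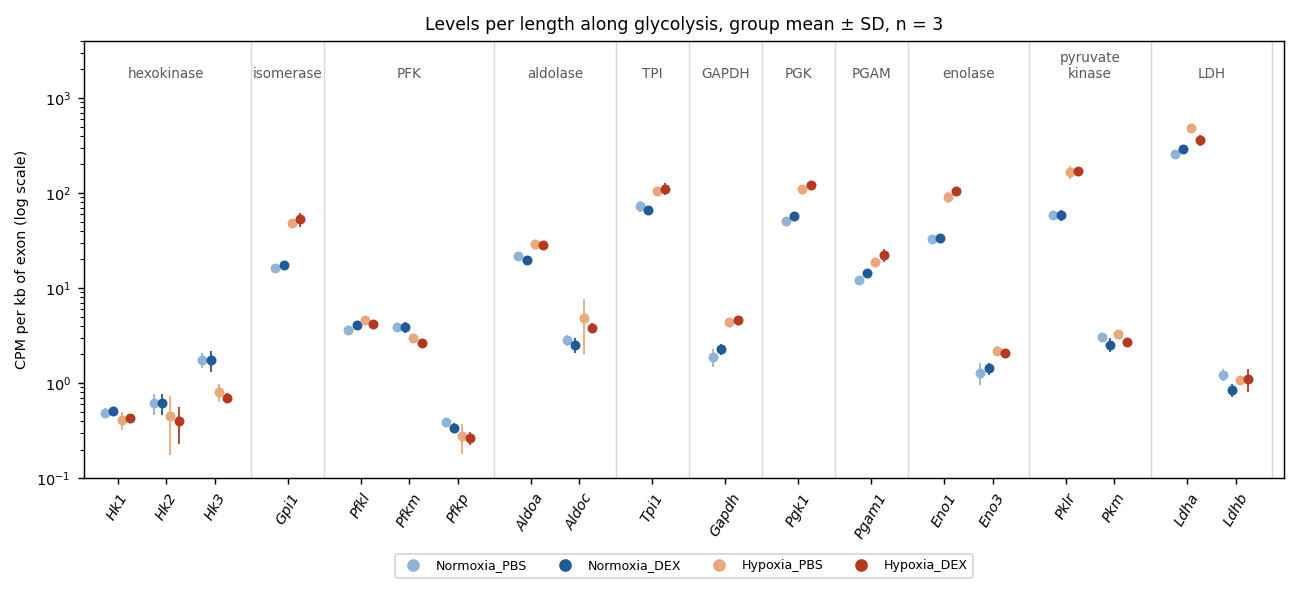
Levels in CPM per kilobase of exon (y axis, log scale), group means ± SD (n = 3), for genes along glycolysis (x axis), in the 4 groups. Pklr lies far above Pkm, Ldha is the highest gene shown, and hypoxia groups lie above normoxia groups for Gpi1, Pgk1, Eno1 and Pklr and below them for Hk3.

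Of 26 other HIF targets, 22 were tested. In hypoxia 36.4% of them rose and 9.09% fell in PBS mice, against 18.9% and 16.8% of all genes. In DEX mice 31.8% rose and 31.8% fell, against 20.7% and 22.2%. With DEX in normoxia 31.8% rose and 13.6% fell, against 9.38% and 7.4%. With DEX in hypoxia 13.6% rose and 9.09% fell, against 6.13% and 7.05%. In PBS mice 8 rose and 2 fell in hypoxia, led by Insig2 (2.09 ± 0.23 on the log2 scale), which restrains sterol synthesis, Ddit4 (1.70 ± 0.28), an inhibitor of mTORC1, Angptl4 (1.51 ± 0.30), an inhibitor of lipoprotein lipase, Tfrc (1.08 ± 0.23), the transferrin receptor, and Pdk1 (1.08 ± 0.08), which restrains the entry of pyruvate into mitochondria, with edgeR adjusted p from 1.07e-06 to 0.00507. In DEX mice 7 rose and 7 fell, among them Narf (-1.47 ± 0.11), Angptl4 (1.43 ± 0.30), Bhlhe40 (1.35 ± 0.16), a transcriptional repressor, and Vldlr (-1.21 ± 0.28), a lipoprotein receptor, with edgeR adjusted p from 1.15e-06 to 0.00506. DEX raised 7 and lowered 3 in normoxia, with Ddit4 (5.32 ± 0.29), Insig2 (2.28 ± 0.23) and Narf (2.12 ± 0.12) moving most (edgeR adjusted p from 9.71e-08 to 5.45e-05). In hypoxia DEX raised 3 and lowered 2, with Ddit4 (2.88 ± 0.26) and Egln3 (-1.49 ± 0.24), an oxygen sensor that hydroxylates HIF, moving most (edgeR adjusted p = 8.05e-05 and 0.00217).

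Of 7 genes for HIF subunits and their regulators, 2 fell in hypoxia in PBS mice (28.6%, against 16.8% of all genes tested). They were Epas1, an alpha subunit, by 0.56 ± 0.08 and Hif1an, an asparagine hydroxylase that inhibits HIF, by 0.32 ± 0.08 (edgeR adjusted p = 0.000191 and 0.00712). In DEX mice 2 rose and 3 fell (28.6% and 42.9%, against 20.7% and 22.2% of all genes tested). These were led by Vhl (-0.59 ± 0.15), which marks the alpha subunit for degradation, Hif1a (0.42 ± 0.11), an alpha subunit, and Hif1an (-0.35 ± 0.08). Their edgeR adjusted p ran from 0.00276 to 0.00636. DEX raised Hif3a, another alpha subunit gene, by 2.27 ± 0.45 in normoxia and by 2.12 ± 0.43 in hypoxia (edgeR adjusted p = 0.00285 and 0.00566), from 0.201 to 0.759 CPM in PBS libraries to 1.22 to 2.84 CPM in DEX libraries.

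Marker genes of other liver cells moved with oxygen beside the changes above. Of all genes tested, 18.9% rose and 16.8% fell in hypoxia in PBS mice, and 20.7% and 22.2% in DEX mice. All 10 Kupffer cell and macrophage markers fell in hypoxia in PBS mice and in DEX mice, with sums of 207 to 254 CPM in the hypoxia libraries and 506 to 771 CPM in the normoxia libraries. Of 8 sinusoidal endothelial markers 5 fell and 1 rose in PBS mice, and 4 fell in DEX mice, with sums of 355 to 376 CPM in hypoxia and 422 to 501 CPM in normoxia. Hepatocyte markers fell in part, 2 of 8 in PBS mice and 3 of 8 in DEX mice, while their sums overlapped between oxygen levels (120400 to 140300 CPM in hypoxia and 114000 to 152700 CPM in normoxia). The part of these cell types in the values of the 32 genes, or of genes of the other lists such as Hk3, was not tested.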

How the data were processed

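RNA was extracted with a Bio-Rad column kit and made into stranded Illumina mRNA libraries, per the labels' protocols. The deposited table holds raw counts per gene for 12 libraries, with totals from 12464687 to 24715995. Per the submitters' processing notes, the build was mm10 and the tools included featureCounts, DESeq2, SAMtools, HISAT2 2.0.4 and Trimmomatic. The roles of the tools, the annotation and the use of strand were not given in the sources used here. One protocol text names the normoxia arm as hypoxia too, and the arms were taken from the sample titles.

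Of 54838 identifiers, 54723 matched a symbol in GENCODE M21, which also gave positions and exon lengths. Aldoa has 2 identifiers, and the one with more counts was used. The counts were tested in edgeR 4.0.16 (R 4.3.3, limma 3.58.1) with filterByExpr, TMM scaling and robust quasi-likelihood fits of the 4 groups together (8 residual degrees of freedom), with Benjamini-Hochberg adjustment over 13861 genes. The fit was tested on simulated data. P-values compare group differences with the spread between these libraries, estimated over the 4 groups together. That spread includes the close pair Hypoxia_DEX-1 and Hypoxia_DEX-3. Promoter windows came from RefSeq (GRCm38.p6). Tables and plots used pandas 2.3.3 and matplotlib 3.10.9.

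The genes and lists were chosen with earlier results of these data known. Library values are given for up to 6 genes with the largest called changes in each comparison, and for further genes, among them Mif, Pfkfb3, Pfkm, Aldoc and Loxl2, chosen with those in the plots after their values were seen. For the other lists, the 5 genes with the largest called changes were named at most. A few genes of these other lists enter the counts but are not reported here by name. Alternatives were RLE scaling, DESeq2 1.42.0, a filter at 1 CPM in 3 libraries, no filter on low counts, only the compared groups, a replicate block, each library left out, Hypoxia_DEX-1 and Hypoxia_DEX-3 summed, and the pair of Hypoxia_DEX-2 and Hypoxia_PBS-1 left out.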

Additional observations from a re-analysis of the deposited data

Results flagged for a closer look

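For 3 of the 22 further HIF targets tested (13.6%, against 1.32% of all genes) the DEX response differed between oxygen levels by the edgeR interaction test. Ddit4 measured 4.11, 3.77 and 4.68 CPM in Normoxia_PBS, 135, 169 and 195 CPM in Normoxia_DEX, 10.5, 19.8 and 10.5 CPM in Hypoxia_PBS and 113, 80.1 and 105 CPM in Hypoxia_DEX. It rose with DEX at both oxygen levels, and the rise was smaller in hypoxia by a log2 difference of -2.44 ± 0.36 (edgeR adjusted p = 0.0123). Narf measured 36.1, 41.7 and 46.6 CPM in Normoxia_PBS, 152, 206 and 182 CPM in Normoxia_DEX, 50.8, 51.4 and 49.8 CPM in Hypoxia_PBS and 59.5, 71.2 and 65.0 CPM in Hypoxia_DEX, a log2 difference of -1.76 ± 0.16 (edgeR adjusted p = 0.000392). Its Normoxia_DEX libraries stood above all others. Bhlhe40 measured 134, 179 and 184 CPM in Normoxia_PBS, 52.8, 67.4 and 82.1 CPM in Normoxia_DEX, 158, 186 and 191 CPM in Hypoxia_PBS and 176, 163 and 177 CPM in Hypoxia_DEX. Its Normoxia_DEX libraries stood below all others, with a log2 difference of 1.24 ± 0.22 (edgeR adjusted p = 0.0181), a call that was lost without Normoxia_PBS-2 (edgeR adjusted p = 0.0505, from 1.24e-05 to 0.0505 over all alternatives).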

How the results depend on the processing

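Of the 48 calls among the 32 genes, 39 were kept under every one of 20 alternatives (19 for the interaction) and 9 were lost in at least 1, all named above. Of 112 values not called, 22 passed in at least 1 alternative, and 0 called values changed sign. Leaving out single libraries gave 15 to 17 genes higher and 1 to 5 lower for hypoxia in PBS mice, 13 to 16 higher and 4 to 5 lower for hypoxia in DEX mice, 4 to 6 higher and 0 to 2 lower for DEX in normoxia, 2 to 6 higher and 0 to 3 lower for DEX in hypoxia, and 0 higher and 0 to 2 lower for the interaction. With only the compared groups fitted, DEX lowered 2 genes in normoxia and 1 in hypoxia. With Hypoxia_DEX-1 and Hypoxia_DEX-3 summed, DEX lowered 1 in hypoxia. Without Hypoxia_DEX-2 and Hypoxia_PBS-1 together, DEX raised 7 in hypoxia and 2 genes had a lower interaction, with the limits of that choice given above. The interaction was lower for 2 genes with DESeq2 and for 2 with no filter. Over all genes the interaction was called higher for 45 and lower for 138 by edgeR, for 119 and 254 by DESeq2, for 19 and 51 with the pair summed, and for 153 and 322 without the other pair. With no filter 85 were higher, and leaving out single libraries gave 17 to 93 higher and 46 to 213 lower. DEX in hypoxia lowered 977 of all genes, 572 with only the compared groups and 516 with the pair summed, and without single libraries 470 to 1251 were lower and 535 to 1215 higher, against 850. The replicate block left 16 genes higher and 2 lower for hypoxia in PBS mice. The labels do not say whether replicate numbers pair libraries across groups. Of 18 same-number pairs, 4 had a correlation over 0.1 (-0.151 to 0.39), among them Hypoxia_PBS-1 with Normoxia_PBS-1 (0.332). Some different-number pairs did too, such as Hypoxia_DEX-3 with Hypoxia_PBS-1 (0.303). With groups of 3 libraries these values cannot tell whether a batch or day was shared. Depth limits Ankrd37 and Plod2 most.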
